A study of Mus musculus with 18 samples.

Results

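The unfolded protein response and the integrated stress response were followed through 10 genes in mouse ileum: *Hspa5*, *Hsp90b1*, *Pdia4*, *Sdf2l1*, *Dnajb9* and *Herpud1*, which act in the endoplasmic reticulum (ER), and *Atf4*, *Ddit3*, *Trib3* and *Asns*, which belong to the arm that runs through the transcription factor ATF4. Members were chosen by name, as textbook genes of both responses, but with earlier results of these data known. Each was read at the probe with the brightest mean signal over all arrays. All 10 were among the 21544 gene names tested, of 37074 on the array. RNA came from cells isolated from the ileum by a modified Weiser method, which releases the lining epithelium in bulk, and was hybridised to 18 one-colour Agilent arrays, with 6 mice in each of 3 groups. All mice were C57BL6/J, entered the study at 8 weeks of age and were sacrificed 8 weeks later at zeitgeber time 3 h. The paper gives an overnight fast before sacrifice, but the sources used here differ on the fasting state. The first group, Pgc1αfl/fl chow, carried floxed alleles of *Ppargc1a* without Cre and ate chow, and the second, Pgc1αfl/fl WD, had the same genotype and ate a Western diet (WD, labelled HFD) with 42% of calories from fat and 0.2% cholesterol. The third group, iPgc1α-/- WD, ate the same WD and carried the floxed alleles with Cre driven by the Villin promoter, active in intestinal epithelium, so that exons 3 to 5 were deleted there and other cells kept the gene. Genotypes are spelled iPGC1afl/fl and iPGC1a-/- in the labels, and knockout mice on chow were not analysed here.

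The unfolded protein response starts when misfolded proteins draw the chaperone BiP, the product of *Hspa5*, away from the sensors IRE1, PERK and ATF6 in the ER membrane. IRE1 splices the *Xbp1* message and ATF6 is cut to release a transcription factor, and both programmes raise chaperones and the machinery that removes misfolded proteins. PERK phosphorylates eIF2α, as do the kinases GCN2, PKR and HRI, which sense amino acid lack, double-stranded RNA and haem lack. The shared outcome, named the integrated stress response, slows translation while ATF4 is made, and ATF4 then raises genes of amino acid synthesis and transport such as *Asns*, and CHOP (*Ddit3*). In the intestine, goblet, Paneth and plasma cells carry a heavy secretory load, and enterocytes package lipoproteins in the ER.

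The arrays were alike in quality. Between 56.3% and 62.3% of spots were well above background per array, the median signal lay between 39 and 61 intensity units over a background of 17 to 23, and no spot was saturated. Each of 3 slides held 2 arrays of every group. Every member was well above background on all 18 arrays except *Hsp90b1*, whose spot on Pgc1αfl/fl WD replicate 2 was an outlier spot and was dropped, so that its values rest on 17 arrays. *Ppargc1a* itself was not lower on the arrays labelled iPGC1a-/-: its brighter probe (mm9, chr5:51848928-51848987) had a mean log2 signal of 10.94 ± 0.46 (SD, n = 6) in Pgc1αfl/fl chow, 11.38 ± 0.07 in Pgc1αfl/fl WD and 11.67 ± 0.26 in iPgc1α-/- WD. Which exon this probe reads was not determined here, so it checks nothing about the deletion. The paper checked the deletion by RT-qPCR of *Ppargc1a* along the intestine, and reports lower ileal expression of its target genes in knockout mice. Enterocyte markers were bright in every group, with *Vil1* at 16.29 to 16.56 and *Anpep* at 17.48 to 17.76 as group means on the log2 scale.

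Upstream sequence of the members was read from RefSeq promoters (build GRCm38.p6), each running from 250 bases before to 50 bases after the transcript start, and all 10 members had one. The ER stress response element (ERSE, CCAAT and CCACG with 9 bases between them) is the classical element of ATF6 with NF-Y. It was present in 39 of 32851 promoters (0.119%), and in those of *Hspa5* and *Hsp90b1*. The compact form ERSE-II (ATTGG and CCACG with 1 base between them) was present in 12 promoters (0.0365%), among them *Herpud1*. The C/EBP-ATF element TGATGNAAN, which ATF4 can bind with a C/EBP partner, was present in 3.95% of promoters and in *Asns*, *Herpud1* and *Trib3*. The XBP1 core TGACGTGG was present in 0.676% of promoters and in none of the members. Both strands were searched, no match overlapped another, and a match describes letters, not binding. The stretches that hold the matches upstream of the start are shown because they hold the elements named for ATF6 and for ATF4, which *Herpud1* carries side by side, with the matches in capitals. No match was found in the windows of *Dnajb9*, *Sdf2l1*, *Pdia4*, *Atf4* or *Ddit3*.
Hspa5: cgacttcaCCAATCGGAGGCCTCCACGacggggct
Hsp90b1: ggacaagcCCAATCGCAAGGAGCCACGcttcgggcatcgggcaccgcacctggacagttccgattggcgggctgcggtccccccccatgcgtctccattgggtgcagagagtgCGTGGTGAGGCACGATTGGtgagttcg
Herpud1: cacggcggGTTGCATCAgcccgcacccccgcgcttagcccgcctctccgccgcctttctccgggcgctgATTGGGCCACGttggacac
Asns: cagccacaTGATGAAACttcccgca
The *Hspa5* stretch is chr2:34772017-34772051 on the plus strand, with its ERSE 65 to 47 bases before the start. The *Hsp90b1* stretch is chr10:86705525-86705664 on the minus strand and holds an ERSE on each strand. The *Herpud1* stretch is chr8:94386308-94386395 on the plus strand and holds the C/EBP-ATF element, read on the opposite strand, ahead of the ERSE-II. The *Asns* stretch is chr6:7693216-7693240 on the minus strand, with its element 23 to 15 bases before the start. The *Trib3* match lay 14 to 22 bases after the start and is not printed.

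WD changed 2 of the 10 genes in opposite directions. *Asns* fell to 0.328 of its chow level and *Herpud1* rose 1.41-fold, and the other 8 did not pass the test, which was limma's moderated test with an adjusted p of 0.05 or lower over all 32728 probes. That is 2 of 10 members, against 24.6% of all gene names called in this comparison, 10.4% higher and 14.2% lower. By the share called the members did not stand out from the array. Their median log2 difference was -0.22, against 0 for all genes. At an unadjusted p under 0.05, 4 of the 10 passed, against 37.4% of all gene names.

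**Figure D1:**
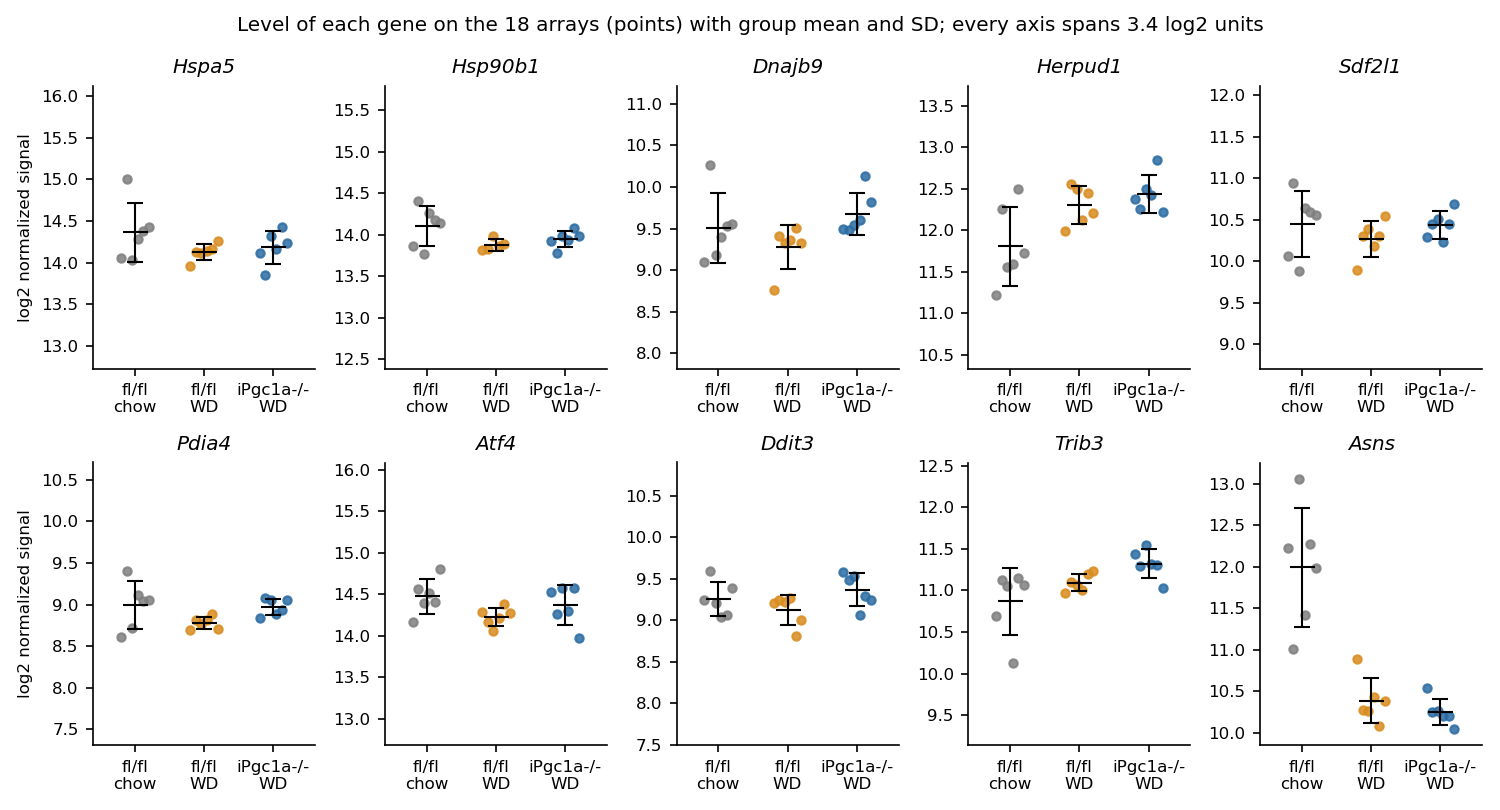
Log2 normalized signal of each gene on every array, with the 3 groups along the horizontal axis, 6 arrays each (5 for *Hsp90b1* in Pgc1αfl/fl WD), and the group mean and SD as black bars. All vertical axes span the same number of log2 units. *Asns* on chow lies between 11.01 and 13.06, above every WD array, and the other 9 genes overlap between groups.

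The general ER chaperones had lower means on WD without passing the test, by an amount that depended on single chow arrays. Without chow replicate 2 the diet difference was -0.10 for *Hspa5*, -0.12 for *Pdia4*, -0.07 for *Sdf2l1* and -0.07 for *Dnajb9*, more than 1.5 times smaller than the values with all arrays, and -0.16 for *Hsp90b1*. Without chow replicate 3 it was wider, at -0.31 for *Hspa5*, -0.31 for *Sdf2l1* and -0.32 for *Dnajb9*. *Hsp90b1* (-0.30, adjusted p = 0.023) and *Pdia4* (-0.29, adjusted p = 0.0487) then passed. *Hspa5*, the main ER chaperone of the HSP70 family, ranged from 14.03 through a median of 14.33 to 15.00 on the log2 scale on chow, from 13.96 through 14.13 to 14.26 in Pgc1αfl/fl WD and from 13.85 through 14.20 to 14.43 in iPgc1α-/- WD. Its probe matches chr2:34631913-34631972 (mm9, plus strand), and no exon was assigned to the members' probes, since no annotation of that build was used here. The groups overlapped, and the highest value, on chow replicate 2, was well above the other 17 arrays. The diet difference was -0.24 log2 units (95% interval -0.51 to 0.04, limma adjusted p = 0.203). A pair of dimmer *Hspa5* probes gave -0.29 (adjusted p = 0.0819) and -0.28 (adjusted p = 0.124).

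*Hsp90b1* encodes GRP94, the HSP90 of the ER. It ranged from 13.77 through 14.16 to 14.41 on chow, from 13.82 through 13.86 to 13.99 in Pgc1αfl/fl WD (n = 5) and from 13.78 through 13.96 to 14.08 in iPgc1α-/- WD. Both WD groups lay inside the range of the chow arrays. The diet difference was -0.23 (95% interval -0.44 to -0.02, adjusted p = 0.11).

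*Pdia4*, a protein disulphide isomerase, ranged from 8.61 through 9.05 to 9.41 on chow, from 8.69 through 8.79 to 8.89 in Pgc1αfl/fl WD and from 8.84 through 8.99 to 9.08 in iPgc1α-/- WD. The diet difference was -0.21 (95% interval -0.43 to 0.01, adjusted p = 0.152). The chow SD of 0.29 was well above the 0.07 and 0.10 of the WD groups. *Sdf2l1*, a partner of the BiP cycle in the ER lumen, ranged from 9.88 through 10.58 to 10.94 on chow and from 9.90 through 10.30 to 10.54 in Pgc1αfl/fl WD, and the difference was -0.18 (95% interval -0.48 to 0.13, adjusted p = 0.42).

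*Dnajb9* encodes ERdj4, a co-chaperone of BiP and a textbook target of spliced XBP1. It ranged from 9.10 through 9.47 to 10.27 on chow, from 8.76 through 9.34 to 9.51 in Pgc1αfl/fl WD and from 9.48 through 9.57 to 10.13 in iPgc1α-/- WD. Its diet difference was -0.23 (95% interval -0.58 to 0.12, adjusted p = 0.35), and a dimmer probe gave 0.05. The lowest value belonged to Pgc1αfl/fl WD replicate 1, and the other 5 arrays of that group lay between 9.32 and 9.51.

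*Herpud1* was the only member of the ER arm that passed, and it rose. Its product sits in the ER membrane and helps to assemble the complex that exports misfolded proteins for degradation, and its promoter is the one above that holds both an ERSE-II and a C/EBP-ATF element. The signal ranged from 11.22 through 11.65 to 12.49 on chow, from 11.99 through 12.33 to 12.55 in Pgc1αfl/fl WD and from 12.22 through 12.40 to 12.85 in iPgc1α-/- WD. The probe lies at chr8:96919117-96919176 (mm9, plus strand). Chow replicates 2 and 5 reached the WD range, and the other 4 chow arrays lay below every WD array. The diet difference was 0.50 ± 0.17 (SE; limma adjusted p = 0.044), and a dimmer *Herpud1* probe rose by 0.64 (adjusted p = 0.0169). The call at the brighter probe was close to the threshold: the adjusted p was 0.0582 with the slide as a block and between 0.00635 and 0.114 with single arrays left out, above 0.05 for 11 of the 18.

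**Figure D2:**
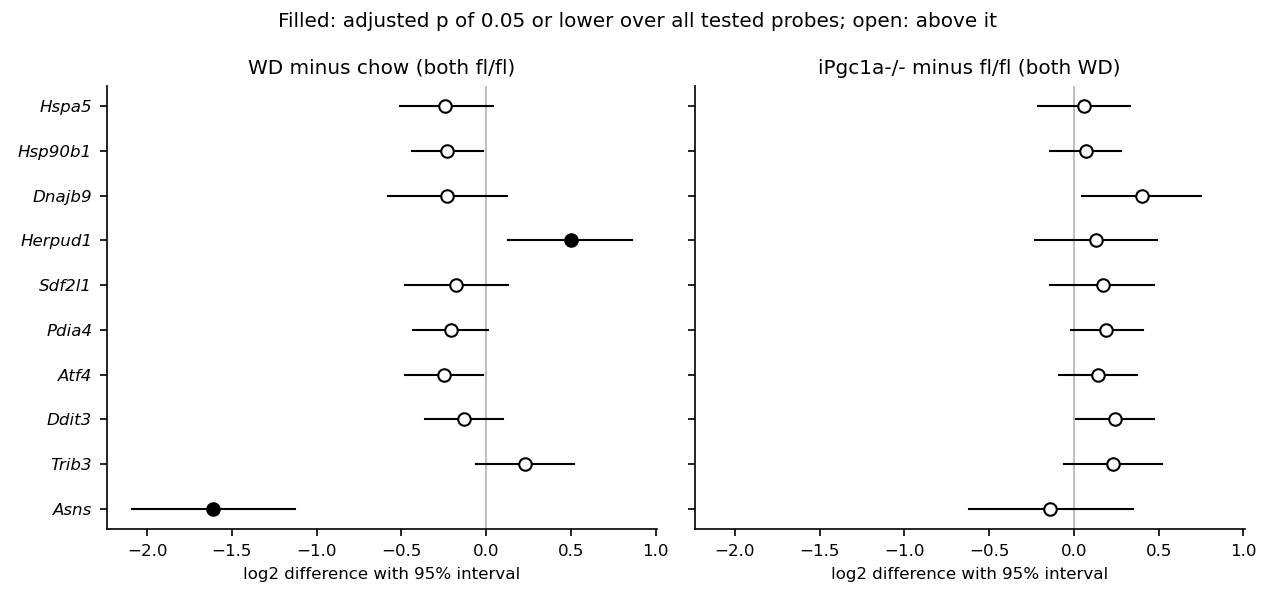
Log2 difference of each gene with its 95% interval, for WD minus chow in Pgc1αfl/fl mice on the left and iPgc1α-/- minus Pgc1αfl/fl on WD on the right. Filled points passed an adjusted p of 0.05, which only *Asns* (-1.61) and *Herpud1* (0.50) did, both for diet.

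*Atf4*, *Ddit3* and *Trib3* of the ATF4 arm did not pass the test for diet. *Atf4* mRNA, whose translation rather than its level is the classical point of control, ranged from 14.17 through 14.47 to 14.80 on chow and from 14.06 through 14.24 to 14.38 in Pgc1αfl/fl WD. The difference was -0.25 (95% interval -0.48 to -0.02, adjusted p = 0.11), and a dimmer probe gave -0.29 (adjusted p = 0.0531). *Ddit3*, which encodes the pro-apoptotic factor CHOP, ranged from 9.04 through 9.23 to 9.59 on chow and from 8.81 through 9.22 to 9.27 in Pgc1αfl/fl WD. Its difference was -0.13 (95% interval -0.36 to 0.10, adjusted p = 0.412), and the dimmer probe, designed to another transcript record, gave 0.04. *Trib3*, a pseudokinase induced by ATF4 and CHOP that feeds back on both, ranged from 10.13 through 11.06 to 11.15 on chow and from 10.97 through 11.08 to 11.23 in Pgc1αfl/fl WD. Its difference was 0.23 (95% interval -0.06 to 0.52, adjusted p = 0.256). The lowest value, 10.13, belonged to chow replicate 4, and without that array the difference was 0.08 (adjusted p = 0.633).

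*Asns*, the asparagine synthetase that ATF4 raises when amino acids are short, gave the widest contrast among the members. On chow the 6 arrays ranged from 11.01 through a median of 12.11 to 13.06. In Pgc1αfl/fl WD they ranged from 10.08 through 10.33 to 10.89, and in iPgc1α-/- WD from 10.05 through 10.23 to 10.54. All 12 WD arrays lay below all 6 chow arrays. The diet difference was -1.61 ± 0.23 (SE; limma adjusted p = 4.18e-05). The target of this probe lies at chr6:7625171-7625228 (mm9, minus strand). A dimmer probe fell by 1.28 on the log2 scale (adjusted p = 0.00016), also without overlap. Of the members, 1 of 10 did not overlap between chow and Pgc1αfl/fl WD, against 10.4% of all gene names, and 1 of 10 passed with a fold change above 1.5, against 8.42%. Within slides, 2 arrays of each group at a time, the difference ran from -2.46 to -0.81.

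*Asns* also varied widely among the chow arrays, with an SD of 0.71 against 0.27 and 0.16 in the WD groups. Chow *Asns* was 12.23 and 13.06 on slide 1, 12.27 and 11.99 on slide 2, and 11.01 and 11.42 on slide 3. Chow *Pdia4* went the other way, from 8.61 and 8.72 on slide 1 to 9.41 and 9.11 on slide 3, as did *Sdf2l1*. Mouse and slide cannot be told apart in this spread, and the permutations below kept arrays within groups but not within slides. The SD of *Asns* within groups, pooled over the groups, was 0.451, the highest of the members, and that of *Hsp90b1*, 0.16, the lowest. After subtraction of the group means, the 15 pairs of ER members had a median Pearson r of 0.74 and a range from 0.53 to 0.88. Of these pairs, 10 passed an adjusted p of 0.05 for r and 6 for Spearman's rho. Pairs of other genes were not tested in this way. Whether the counts of passing pairs, here and below, exceed those of genes at large is therefore not known. *Hspa5* and *Dnajb9* gave r = 0.88 and Spearman's rho = 0.80 (permutation p = 6e-05 and 0.00014, adjusted over 45 pairs to 0.0027 and 0.0063, n = 18, two-sided, with arrays permuted within groups). Without the 2 arrays farthest from the median of *Hspa5*, chow replicates 2 and 3, r was 0.77. *Hspa5* and *Pdia4* gave r = 0.70 and rho = 0.41 (permutation p = 0.0204 and 0.146, adjusted 0.0589 and 0.274, n = 18), with r of 0.35 without those arrays and -0.21 within iPgc1α-/- WD, where *Pdia4* also ran against *Hsp90b1* (-0.27) and *Herpud1* (-0.36).

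Against *Asns*, 4 of the 6 ER members had a negative r that passed an adjusted p of 0.05 (*Hsp90b1*, *Dnajb9*, *Sdf2l1* and *Pdia4*), and 1 passed by rho (*Dnajb9*). For *Hsp90b1* r was -0.77 (n = 17) but -0.41 without chow replicates 2 and 3. Within chow, Pgc1αfl/fl WD and iPgc1α-/- WD it was -0.90, -0.14 and -0.23. Without the 2 arrays farthest from the median of the ER gene, r with *Asns* was -0.49 for *Dnajb9* and -0.80 for *Pdia4*. *Herpud1* and *Asns* gave r = -0.34 and rho = -0.37 (permutation p = 0.369 and 0.196, adjusted 0.593 and 0.339, n = 18). *Sdf2l1* and *Asns* gave r = -0.83 and rho = -0.67 (permutation p = 0.00132 and 0.00977, adjusted 0.0151 and 0.055, n = 18), with r of -0.88, -0.74 and -0.63 within chow, Pgc1αfl/fl WD and iPgc1α-/- WD, and -0.62 without chow replicates 2 and 3. *Hspa5* and *Asns* gave r = -0.70 (permutation p = 0.0209, adjusted 0.0589) and rho = -0.46 (p = 0.0814, adjusted 0.175), which dropped to r = -0.27 without chow replicates 2 and 3 and so rests on those arrays. *Atf4* and *Asns* gave r = -0.13 and rho = 0.00 (permutation p = 0.698 and 1, adjusted 0.827 and 1), and none of the 18 pairs of an ER member with *Atf4*, *Ddit3* or *Trib3* passed an adjusted p of 0.05 for r. In all, 14 of 45 pairs passed it for r and 7 for rho. Chow replicate 2 had the highest signal on chow for *Hspa5*, *Hsp90b1*, *Dnajb9*, *Sdf2l1* and *Pdia4* and the lowest for *Asns* (11.01), and chow replicate 3 had the highest *Asns* (13.06) and the lowest *Hspa5* on chow (14.03). These arrays, on slides 3 and 1, lay within the quality range of the others, with 61.6% and 59.7% of spots well above background. Without both, an alternative chosen after these values were seen, the diet difference was -1.59 for *Asns* (adjusted p = 3.1e-06) and 0.55 for *Herpud1* (adjusted p = 0.0426), and still only those members passed.

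**Figure D3:**
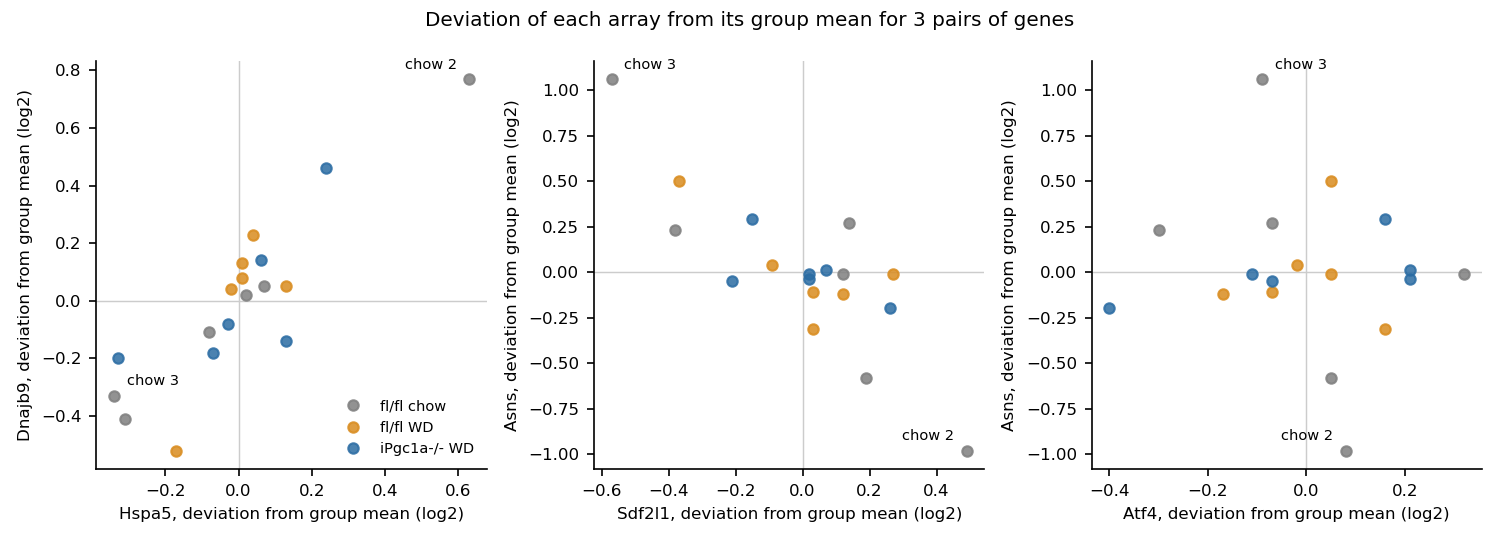
Deviation of each array from its group mean, in log2 units, for *Dnajb9* against *Hspa5* (r = 0.88), *Asns* against *Sdf2l1* (r = -0.83) and *Asns* against *Atf4* (r = -0.13). Each point is 1 of the 18 arrays, coloured by group, and chow replicates 2 and 3 lie at opposite ends for *Hspa5*, *Sdf2l1* and *Asns*.

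Among 21471 other gene names, those closest to *Hspa5* in these deviations were *Atp2a2* (r = 0.94), the SERCA pump that fills the ER with calcium, *Hspa13* (0.91), *Dnajb9* (0.88), *Creld2* (0.87), an ER protein induced by stress, and *Tulp4* (0.87). Those closest to *Asns* were *Psat1* (0.95), an enzyme of serine synthesis, the gene model *Gm8096* (0.92), *Atf5* (0.91), a relative of ATF4, *Saa3* (0.87), an acute phase protein, and *Gm6756* (0.87). These values describe 18 arrays, carry no test and were not recomputed without chow replicates 2 and 3. The genes close to *Asns* spread mostly on chow. *Psat1* had an SD of 0.64 on chow, 0.21 in Pgc1αfl/fl WD and 0.13 in iPgc1α-/- WD. *Saa3* was 5.77 on chow replicate 2 and 8.83 on chow replicate 3, and lay between 4.58 and 5.59 on the WD arrays.

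Deletion of Pgc1α on WD left the members without a call. None of the 10 passed, against 0.227% of all gene names called in this comparison (0.065% higher and 0.162% lower), 2 of 10 had an unadjusted p under 0.05, against 9.29% of all gene names, and none separated the groups without overlap, against 0.965%. With a fold change above 1.5 required as well, 0.135% of all gene names were called. The comparison shares the Pgc1αfl/fl WD arrays with the diet comparison. Means of 9 of the 10 were higher in iPgc1α-/- WD, with a median difference of 0.15 log2 units against 0.01 for all genes. The widest was that of *Dnajb9*, 0.40 (95% interval 0.05 to 0.75, limma adjusted p = 0.478), in which Pgc1αfl/fl WD replicate 1 was far below the others of its group. Without that array it was 0.30 at adjusted p = 0.702. *Ddit3* differed by 0.24 at the brighter probe (adjusted p = 0.507) and by 0.39 at the dimmer one (limma adjusted p = 0.322). The means of *Trib3* differed by 0.23, of *Pdia4* by 0.19, of *Sdf2l1* by 0.17, of *Atf4* by 0.14 and of *Herpud1* by 0.13.

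The interval for *Hspa5* ran from -0.21 to 0.33 around 0.06 and that for *Hsp90b1* from -0.14 to 0.28 around 0.07. *Asns*, at 10.25 ± 0.16 in iPgc1α-/- WD, differed from Pgc1αfl/fl WD by -0.14 (95% interval -0.62 to 0.35, adjusted p = 0.877).

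Other genes of both responses were read in 8 pathway lists to place the members. Their shares stand beside the 14.2% of all gene names that were lower and the 10.4% that were higher with WD. The lists were chosen with earlier results of these data known, so a share above these values is a description and not a test. Among 28 further ER chaperones and folding enzymes, 12 fell with WD (42.9%), 1 rose and 15 did not pass, with a median log2 difference of -0.25. The widest changes were those of *Txndc5* (-0.73, adjusted p = 2.47e-05), *Dnajc10* (-0.66), *Prdx4* (-0.66) and *Pdia6* (-0.55), which all work on disulphide bonds or hydrogen peroxide in the ER. *P4hb*, the founding disulphide isomerase and a subunit of the lipoprotein lipid transfer complex, was the gene that rose (0.39, adjusted p = 0.0143), and is named after its value was seen. Of 30 genes of import into the ER and transport to the Golgi, 10 fell and 5 rose. *Sec11c* (-0.66), of the signal peptidase, and *Ssr1* (-0.53), of the translocon, fell, while *Lman1* (0.59), a cargo receptor on the way to the Golgi, and *Bet1* (0.53), a fusion protein of the same route, rose. Of 23 genes of ER-associated degradation, 3 fell, *Derl3* (-0.79), *Vcp* (-0.37) and *Vimp* (-0.31), which is 13.0% and close to the 14.2% called lower on the array. None rose there, although 1 or 2 did with other settings (processed or median signal scaled to the 75th percentile, normexp, array weights or the mean of all probes).

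Among 13 ER stress sensors and their transcription factors, 5 fell and 2 rose. The 2 that rose were *Creb3l2* (0.79, adjusted p = 0.00803) and *Creb3l3* (0.50, adjusted p = 0.000922), membrane-bound factors processed like ATF6, the second best known for fasting and triglyceride genes. *Creb3l4* (-0.52) and *Creb3l1* (-0.34) of the same family fell, as did the sensor *Ern1*, its substrate *Xbp1* and the protease *Mbtps2*, named here to complete the 5. Of 15 kinases, phosphatases and subunits around eIF2, 3 fell, *Eif2s2* (-0.66), *Eif2b3* (-0.49) and *Eif2s1* (-0.21), and 1 rose, *Eif2ak1* (0.75), the haem-sensing kinase. Of 15 cytosolic heat shock genes, *Hspb1* (0.79, adjusted p = 0.0478) and *Dnajb4* (0.46, adjusted p = 0.0226) rose and none fell. Of 14 mitochondrial chaperones and proteases, 4 fell and none rose, *Hspd1* (-0.49), *Hspa9* (-0.38), *Hspe1* (-0.38) and *Clpp* (-0.24), but with each array scaled to its 75th percentile 1 rose and 1 fell on the median signal, and 1 rose and none fell on the processed signal.

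**Figure D4:**
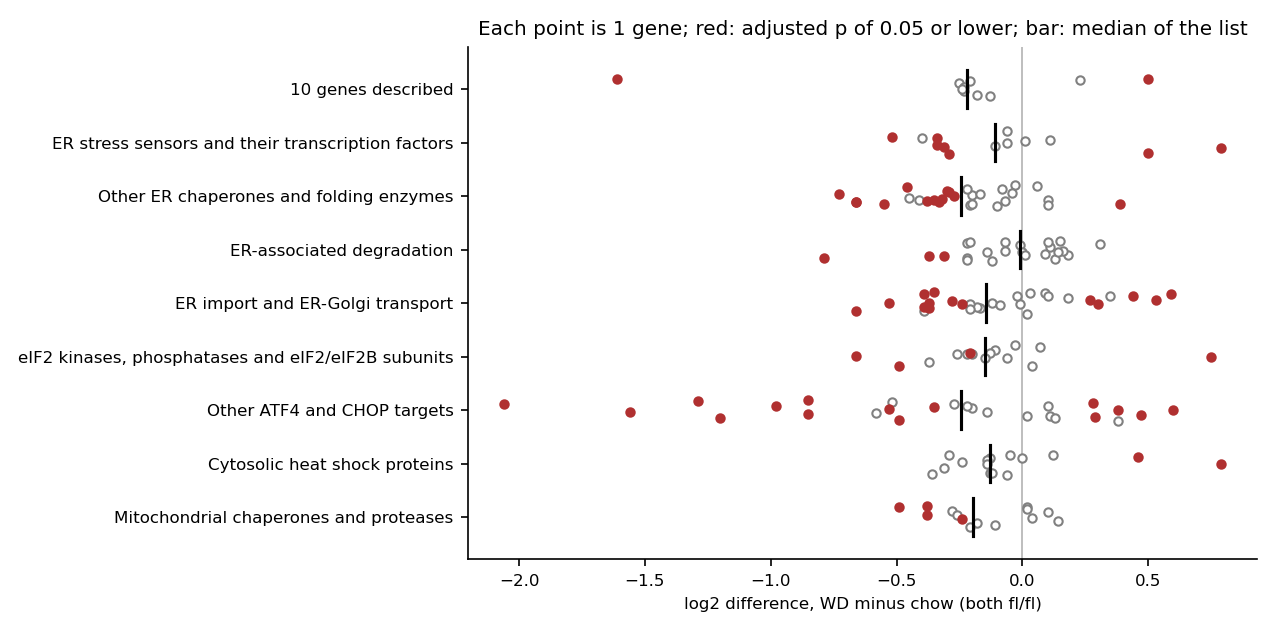
Log2 difference WD minus chow for every tested gene of the members and of the 8 pathway lists, each point a gene, red where the adjusted p was 0.05 or lower, with the list median as a bar. The lists spread on both sides of 0, and the ATF4 and CHOP targets reach from -2.06 to 0.60.

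Targets of ATF4 and CHOP other than the members moved in both directions. Of 26 tested, 10 fell, 5 rose and 11 did not pass, with a median of -0.25, and 8 of the 15 changed by more than 1.5-fold. All of those 8 fell except *Slc3a2* (0.60). *Chac1*, which degrades glutathione, fell by 2.06 on the log2 scale (adjusted p = 0.00606), with chow arrays between 7.29 and 10.99 and Pgc1αfl/fl WD arrays between 5.96 and 7.56, which overlap. *Phgdh*, the first enzyme of serine synthesis, fell by 1.56 (adjusted p = 8.19e-05), from 9.96 ± 0.71 to 8.40 ± 0.29. *Psat1*, the next enzyme of that route, fell by 1.29 (adjusted p = 0.000113), and *Atf5* fell by 1.20 (adjusted p = 0.000242). The other targets that fell, named after their values were seen, were *Mthfd2* (-0.98), *Slc7a1* (-0.85), *Shmt2* (-0.85), *Psph* (-0.53), *Vldlr* (-0.49) and *Pycr1* (-0.35). For *Phgdh*, *Psat1* and *Atf5*, as for *Asns*, all 6 chow arrays lay above all 6 Pgc1αfl/fl WD arrays. Chow replicate 2, lowest in *Asns*, was also lowest on chow in *Phgdh* (8.81), *Psat1* (8.79) and *Atf5* (11.52), and chow replicate 3 was highest in each (10.88, 10.55 and 13.15).

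The 5 targets that rose, named after their values were seen, were *Slc3a2* (0.60, adjusted p = 0.00036), the heavy chain of several amino acid transporters, *Sesn2* (0.47), which senses leucine, *Cth* (0.38), the last enzyme of cysteine synthesis, *Cebpb* (0.29) and *Tnfrsf10b* (0.28), a death receptor raised by CHOP. *Trib3* and *Ddit3* lay between these and the genes that fell, at 0.23 and -0.13.

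**Figure D5:**
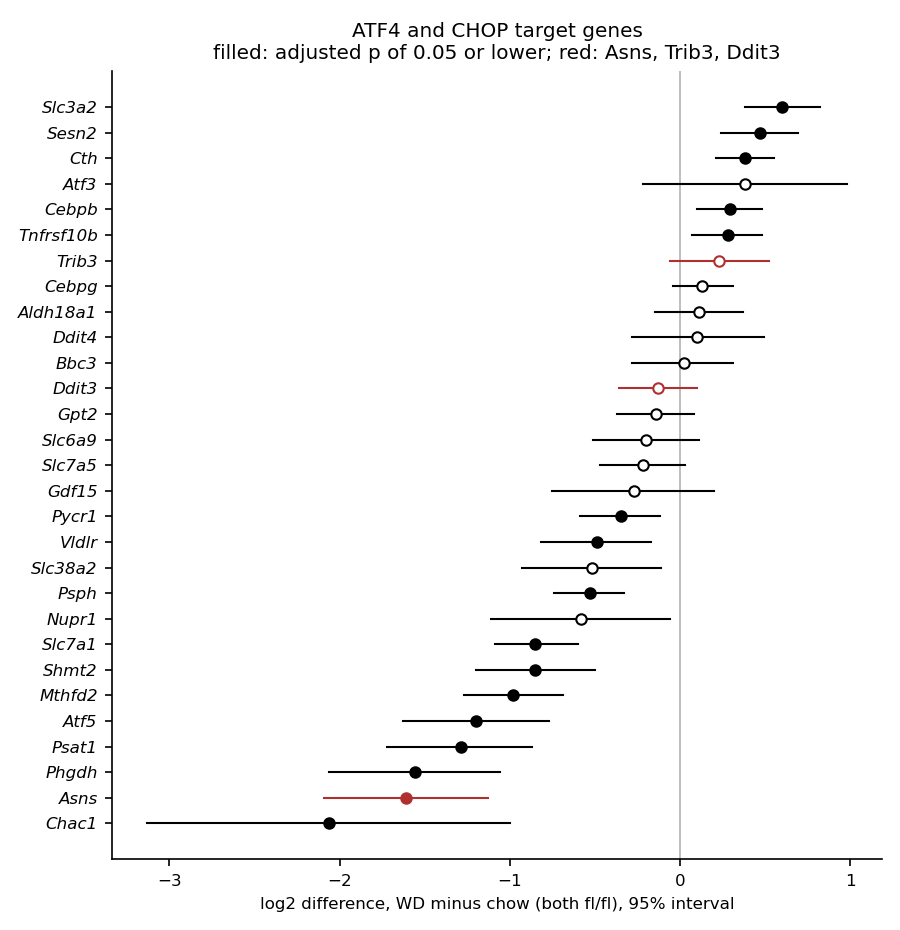
Log2 difference WD minus chow with its 95% interval for 26 ATF4 and CHOP targets and, in red, *Asns*, *Trib3* and *Ddit3*. Filled points passed an adjusted p of 0.05. *Chac1* (-2.06), *Asns* (-1.61), *Phgdh* (-1.56) and *Psat1* (-1.29) lie lowest and *Slc3a2* (0.60) highest.

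None of the tested genes of any of the 8 lists passed for genotype. The lowest adjusted p in any list was 0.196, and the median differences ran from 0 for the genes around eIF2 to 0.25 for the cytosolic heat shock genes.

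Markers of secretory and immune cells moved with diet beside the ER genes. All 8 tested goblet cell markers fell, from *Agr2* (-1.10), itself an ER disulphide isomerase of mucin folding, and *Muc2* (-0.78) to *Tff3* (-0.54). The summed signal of this list ran from 467000 to 615000 intensity units on chow, 213000 to 496000 in Pgc1αfl/fl WD and 305000 to 443000 in iPgc1α-/- WD. Of 6 plasma cell markers 5 fell, with *Jchain* at -3.23 and *Mzb1*, an ER chaperone of plasma cells, at -1.68. Their summed signal, carried mostly by *Fcrl5*, which did not pass (0.48), ran from 10300 to 11800 on chow, 9670 to 16700 in Pgc1αfl/fl WD and 11700 to 24900 in iPgc1α-/- WD, and *Tnfrsf17* did not pass the filter on dim probes. All 5 T cell markers fell, with sums of 12000 to 43600, 4730 to 8850 and 6450 to 11000 in the same order of groups, and all 4 B cell markers fell, with sums of 514 to 3160, 159 to 993 and 283 to 706. Of the crypt markers 4 of 8 fell, with sums of 12400 to 21100, 7960 to 14400 and 8250 to 11000. Of 10 enterocyte markers 4 rose, *Apoa4* (0.98), *Alpi* (0.90), *Fabp1* (0.88) and *Apob* (0.39), and *Slc10a2* fell, with sums of 668000 to 855000, 811000 to 994000 and 924000 to 1050000. Of 6 Paneth cell markers 2 fell, of 6 enteroendocrine markers 1, of 3 tuft cell markers 1 and of 4 macrophage and dendritic cell markers 2, and none of 6 stromal markers passed. No list had a marker that passed for genotype. In bulk RNA, fewer cells of a type and less RNA per cell cannot be told apart, and the part of these cell types in the changes of the ER genes and of *Asns* was not tested.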

How the data were processed

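Total RNA from ileal cells of 18 mice was labelled with Cy3 and hybridised to Agilent mouse arrays (1 array a mouse, 59305 spots for 56605 probes besides controls). Per the labels, the authors extracted intensities with Agilent Feature Extraction (version 10.10.1.1). The deposited files hold median, mean, background and processed signals as linear intensities, and the authors also deposited a table of log2 values of 33095 probes, filtered, normalized and corrected for washing bath and labelling series, whose column medians were all 7.44. Its centring is theirs and its values served only as an alternative. Bath and series are not given in the sources used here, so that correction was not repeated.

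The log2 of the deposited median intensity was used. Spots flagged as outliers were dropped, a probe was kept if some group had it well above background on 5 or 6 of its 6 arrays (32728 probes, 21544 gene names), and arrays were normalized with a re-implementation of qsmooth (window 0.05). A model of the 3 groups was fitted with limma (version 3.58.1, R 4.3.3), with Benjamini-Hochberg adjustment over all 32728 probes. Passing means an adjusted p of 0.05 or lower at the brightest probe of a gene. The number of arrays limits the precision, with a median SE of 0.104 log2 units for diet. Arrays of different mice correlated at 0.967 to 0.997, and none was a duplicate. Mice are separate animals within groups by their replicate labels.

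Genes were named by rule: the 10 members, *Ppargc1a*, from each pathway list up to 4 passing genes with the widest diet difference and up to 2 for genotype, and for *Hspa5* and *Asns* the 5 genes with the highest correlation of group-centred values. The members and lists were chosen with earlier results of these data known. Correlations between members used 100000 permutations within groups (Python 3.11.15). Scripts were tested on simulated data. Other signals, scalings, filters, blocks, weights, probe rules, thresholds and single arrays left out were tried as alternatives.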

Additional observations from a re-analysis of the deposited data

Results flagged for a closer look

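In Pgc1αfl/fl WD, replicate 1 had a *Dnajb9* signal of 8.76 on the log2 scale, while the nearest of the other 5 arrays had 9.32. The gap was 0.75 of the range of the group, past Dixon's 95% limit for 6 arrays. Over the 29 groups of 6 values examined, chance alone marks about 1 group in 20.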

How the results depend on the processing

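With diet, 2 members passed, and the number was 1 (*Asns*) without a filter on dim probes, with the slide as a block, with only the 2 groups compared in the fit, with a fold change above 1.5 required, and at an adjusted p of 0.01. It was between 1 and 3 with single arrays left out. *Asns* passed in all 13 other processing settings (-1.65 to -1.45) and without any single array (-1.80 to -1.41). *Herpud1* kept its direction but passed in 9 of the 13, and not without chow replicate 1, 3, 4 or 6, Pgc1αfl/fl WD replicate 2, 3, 5 or 6, or iPgc1α-/- WD replicate 1, 3 or 4 (0.38 to 0.52, adjusted p up to 0.114). *Hsp90b1* passed with array weights (-0.25, adjusted p = 0.043) and without chow replicate 3, *Pdia4* without chow replicate 1 or 3, and *Atf4* with the mean of all probes (-0.27, adjusted p = 0.0273) and without chow replicate 1. For genotype 0 of 10 passed in every setting and without any array. The strict filter removed *Hsp90b1*. Arrays with the same replicate number had correlations of their deviations from -0.22 to 0.35 (median 0.10, 9 of 18 over 0.1). Arrays of different numbers were not compared in this way, so whether replicate numbers pair the arrays was not settled. With the replicate block 2 members passed for diet, *Herpud1* at an adjusted p of 0.0118, and 0 for genotype. Within slides the diet difference of *Hspa5*, *Hsp90b1*, *Dnajb9*, *Sdf2l1*, *Pdia4* and *Trib3* took both signs. At an adjusted p of 0.01, 6 of the further ER chaperones fell, and with a fold change above 1.5 required, 3 did. The cause of these shifts was not tested.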
